A study of Rattus norvegicus with 5 samples.

Results

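Broad peaks are the regions of 1 kb or more, from start to end, where rat genomic DNA was enriched over input by an antibody to 6mA, methylated adenine. They were chosen by their width alone from the authors' 3 peak lists against input and numbered 13666 of 375486 peaks. NSCs held 5024 of 121816, Neurons 4733 of 137579 and Astrocytes 3909 of 116091. The NSC samples are SCR022, a line of neural stem cells from adult rat hippocampus; the Neurons and Astrocytes are labelled by cell type only. No genotype, treatment, age or source animal is given for any group, and all were handled by the same protocol. Each cell type had 1 immunoprecipitated library, and inputs were given as samples for NSCs and for Neurons. The immunoprecipitated libraries held 13785430 to 13930646 uniquely mapped reads. The Astrocyte list names an Astrocyte input that has no sample of its own. With 1 library per cell type there was no replicate, so no test was possible. Intervals below are exact Clopper-Pearson 95% intervals that cover counting error only, since neighbouring peaks are not independent. Peaks in DNA do not show expression, so the labelled cell types could not be checked against their markers.

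6mA is adenine that carries a methyl group on its exocyclic nitrogen. It is common in bacterial DNA, while its level in mammalian DNA is debated. In an immunoprecipitation, the antibody recovers fragments rather than single bases, so a peak marks an enriched stretch without locating a modified adenine. A wide peak can come from many neighbouring enriched fragments or from weak enrichment spread over a stretch. The series title names N6amt1, a methyltransferase, and Txnrd3, a thioredoxin reductase. No second measure of 6mA at these regions was used here.

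In 29 genes with a name other than a placeholder, the promoter held a broad peak in all 3 cell types. The 4 sequences below are shown because a promoter peak is annotated by name to a gene whose start is known. Whether the printed bases lie inside the peak is not known. Slc39a8, a metal ion transporter, had the widest such peak when each gene was ranked by its narrowest peak over the 3 lists. Utrn encodes utrophin, a large protein of the membrane cytoskeleton, Ppp1r1c an inhibitor of protein phosphatase 1, and Ttll2 a member of the tubulin tyrosine ligase-like family. Ranked in the same way by fold, these 3 genes came first among those matched by symbol to RefSeq. Each sequence is the 250 bases before the gene's start on the GRCr8 build, from the gene's own strand, 5′ to 3′. Capitals mark words of 5 letters, on either strand, that begin with CAGG or, alternatively, with GAGG and end in C or T. This family of letters has been described around 6mA in human DNA. The build of the peak files is not stated, so the peaks were not placed on these bases.
Slc39a8 (chr2:226929941-226930190, plus strand): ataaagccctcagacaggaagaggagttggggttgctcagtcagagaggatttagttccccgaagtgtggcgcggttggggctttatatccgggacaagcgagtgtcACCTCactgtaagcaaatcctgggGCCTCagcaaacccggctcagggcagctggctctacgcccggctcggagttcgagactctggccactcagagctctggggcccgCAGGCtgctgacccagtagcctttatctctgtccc
Ppp1r1c (chr3:85023371-85023620, plus strand): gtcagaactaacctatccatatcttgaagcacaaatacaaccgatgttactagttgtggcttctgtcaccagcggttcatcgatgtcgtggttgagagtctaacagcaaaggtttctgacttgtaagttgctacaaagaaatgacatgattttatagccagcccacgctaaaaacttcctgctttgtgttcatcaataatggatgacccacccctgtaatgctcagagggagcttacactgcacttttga
Utrn (chr1:9044488-9044737, minus strand): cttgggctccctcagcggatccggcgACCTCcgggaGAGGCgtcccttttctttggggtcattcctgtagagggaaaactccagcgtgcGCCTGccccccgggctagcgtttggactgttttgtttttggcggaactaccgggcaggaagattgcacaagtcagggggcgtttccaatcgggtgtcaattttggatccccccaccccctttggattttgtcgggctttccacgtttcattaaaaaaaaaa
Ttll2 (chr1:55517734-55517983, minus strand): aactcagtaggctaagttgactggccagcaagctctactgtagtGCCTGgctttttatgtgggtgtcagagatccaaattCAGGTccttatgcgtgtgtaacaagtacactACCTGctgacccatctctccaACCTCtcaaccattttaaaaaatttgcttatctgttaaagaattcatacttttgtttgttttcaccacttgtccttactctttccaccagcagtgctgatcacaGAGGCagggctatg
The Slc39a8 and Utrn windows each held 3 of the pentamers, that of Ttll2 held 5 and that of Ppp1r1c held 0. Of the 29 genes, 21 were matched to a RefSeq promoter, and 20 of the 21 (95.2%, 76.2 to 99.9) held at least 1 pentamer. The share was 91.9% over 18999 protein-coding promoters of the same length, so most windows of this length hold one whether or not a peak is near. A run of 5 CA dinucleotides, on either strand, lay in 0 of the 21 windows (up to 16.1%) and in 0.774% of all. GC content had a median of 55.2% in the 21 and 54.8% in all.

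The width that defined these peaks took in a small share of each list but a larger share of its bases. Broad peaks were 4.12% of the NSC list (4.01 to 4.24), 3.44% of the Neuron list (3.34 to 3.54) and 3.37% of the Astrocyte list (3.26 to 3.47). They covered 6.63 Mb in NSCs, 6.04 Mb in Neurons and 5.01 Mb in Astrocytes, or 10.4%, 8.65% and 8.62% of the bases in peaks. Most lay close to the threshold, the median width being 1172 bp for NSCs and 1152 bp for the other cell types. Widths of 2000 bp or more were reached by 278, 209 and 188 peaks, and 3000 bp or more by 78, 50 and 39. Counts on either side of the threshold were close in Neurons and in Astrocytes and lower above it in NSCs. From 990 to 999 bp there were 250 in NSCs, 236 in Neurons and 186 in Astrocytes, and from 1000 to 1009 bp there were 199, 218 and 175. Of the NSC peaks of exactly 1000 bp with the highest scores, 1 lay in Hdac9, a histone deacetylase, with fold 86.5. At 999 bp, 1 lay in Irf4, a transcription factor, with fold 107.

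Fold over input, the authors' own ratio for each peak, was highest in peaks of moderate width and low in the widest. It comes from the same contrast as the width, so it is given as a description. The median fold of NSC peaks was 11.3 under 300 bp, 20.9 from 800 to 999 bp and 21.8 from 1000 to 1249 bp, and it was 7.83 at 2000 bp or more. In Neurons the same classes gave 10.9, 24.1, 27.8 and 8.85, and in Astrocytes 11.3, 24.5, 27.3 and 7.15. All broad peaks together had a median fold of 17.8 in NSCs, 25.9 in Neurons and 25.4 in Astrocytes, beside 12.1 for the narrower peaks of Neurons and of Astrocytes and slightly less for those of NSCs. Broad peaks of strong and of weak enrichment were therefore both present. Folds under 5 made up 4.38%, 4.61% and 6.78% of broad peaks and 0.317%, 0.257% and 0.429% of narrower ones. Folds of 40 or more made up 15.4%, 27.7% and 26.2% of the broad peaks. The authors' score, 10 times the negative log10 of the peak p-value, had a median of 428, 688 and 682 in broad peaks and 84.4, 86.1 and 85.0 in narrower ones.

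**Figure D1:**
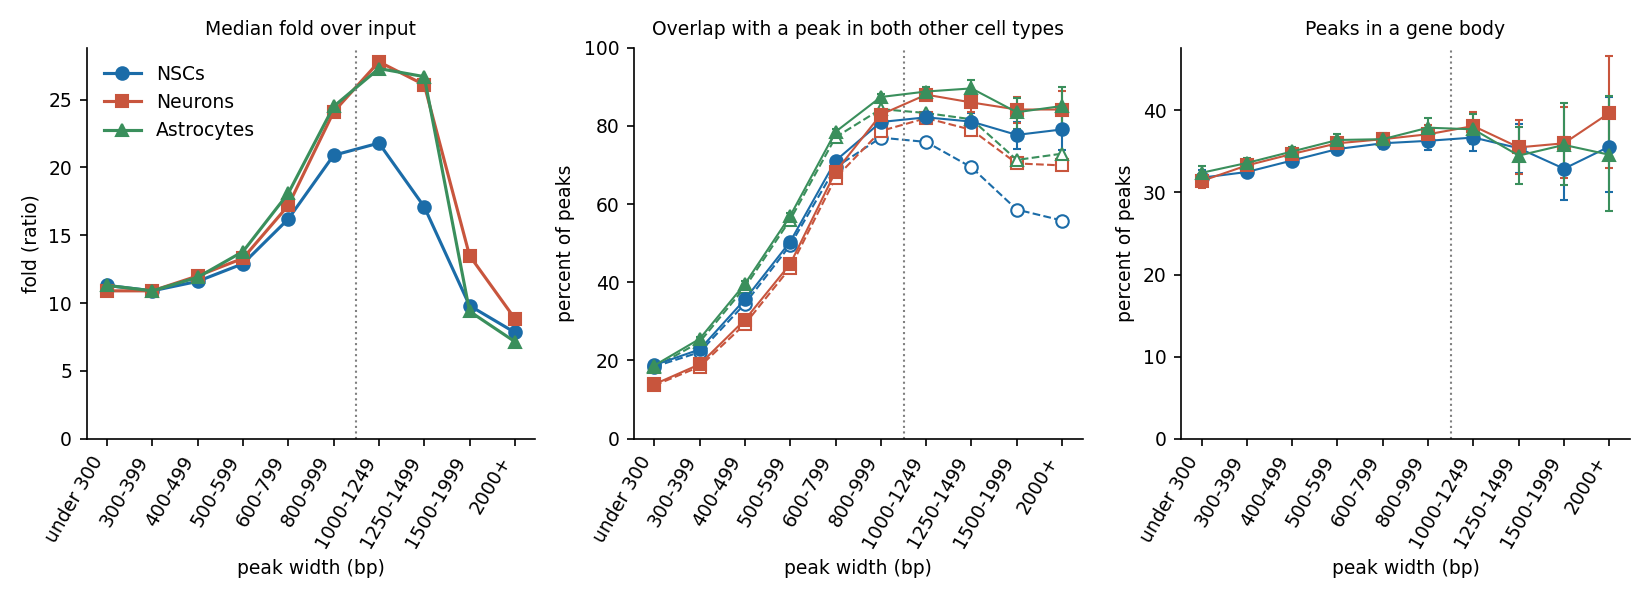
Median fold over input (left), percent of peaks that overlap a peak in both other cell types (middle; filled symbols any overlap, open symbols the peak's centre) and percent in a gene body (right), by peak width in bp. The dotted line is 1 kb, bars are exact 95% intervals for counting error, and the shares by any overlap lie between 77.7% and 89.6% from 800 bp upward, while those by centre and the median fold are lower at 1500 bp or more.

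Broad peaks were found at the same places in the 3 cell types more often than narrower peaks. By an overlap of at least 1 bp, 81.2% of NSC broad peaks (80.1 to 82.3), 87.0% of Neuron ones (86.1 to 88.0) and 88.3% of Astrocyte ones (87.2 to 89.3) met a peak in both other lists. Over peaks of any width the shares were 43.6%, 38.6% and 45.8%, and over narrower peaks 42.0%, 36.9% and 44.3%. Most of the rise with width came before 1 kb: at 800 to 999 bp the shares were already 81.0%, 82.9% and 87.4%. A wide region meets another more easily, so the centre of each peak was used as well. By centre, 71.4% of NSC, 79.7% of Neuron and 81.4% of Astrocyte broad peaks lay in a peak of both other lists, beside 77.0%, 78.7% and 84.3% at 800 to 999 bp. At 2000 bp or more the centre gave 55.8%, 69.9% and 72.9%. Broad peaks with a partner in neither other list made up 5.83%, 4.61% and 3.22%, beside 32.1%, 36.1% and 29.2% over peaks of any width. At 800 to 999 bp these shares were 6.96%, 6.45% and 4.29%, close to those of broad peaks.

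Fold and sharing moved together among the broad peaks. Broad NSC peaks with a fold under 5 overlapped peaks in both other cell types in 34.5% of cases (28.3 to 41.2), and those with a fold from 20 to 40 in 98.9% (98.3 to 99.4). In Neurons these shares were 47.2% and 99.3%, and in Astrocytes 55.1% and 99.8%. Shared and unshared broad peaks were of like width: the NSC medians were 1167 bp with a partner in both other lists and 1185 bp with none. Their folds differed, with medians of 23.1 and 6.56 in NSCs, 29.5 and 6.46 in Neurons, and 28.6 and 5.95 in Astrocytes. Whether fold set the sharing was not tested.

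Partners that were also broad were counted next, a share that cannot exceed that of partners of any width. Of NSC broad peaks, 51.6% overlapped a peak in Neurons that was also broad (50.2 to 53.0) and 47.9% one in Astrocytes (46.5 to 49.3). Of Neuron broad peaks, 54.6% met a broad one in NSCs and 48.8% in Astrocytes. Of Astrocyte broad peaks 61.7% met one in NSCs and 59.3% in Neurons. Over peaks of any width, in the same order, the shares were 3.83% and 3.20%, 3.47% and 2.74%, and 4.12% and 3.94%. At 800 to 999 bp they were 14.6% and 11.1%, 13.1% and 9.96%, and 16.8% and 17.7%. Where the NSC peak met only narrower peaks, the widest partner had a median of 809.0 bp in Neurons and 806.0 bp in Astrocytes, which is not far below the threshold. Overlapping broad peaks were merged into 8125 loci. Of these, 1811 (22.3%) were broad in all 3 cell types, 1788 in 2 and 4526 (55.7%) in 1. A peak of any width was present in all 3 cell types at 6415 loci (79.0%). Of the 1858 loci broad in NSCs only, 1137 (61.2%) had narrower peaks in both other cell types and 293 (15.8%) had no peak in either. The corresponding counts were 1195 and 218 of 1661 loci broad in Neurons only, and 715 and 126 of 1007 broad in Astrocytes only. Across the 1811 loci broad in all 3, Spearman's rho of width between cell types was 0.630 to 0.650, and of fold 0.808 to 0.874. These loci share genome sequence and were chosen for width in every list, so the rho values describe the lists and carry no test.

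**Figure D2:**
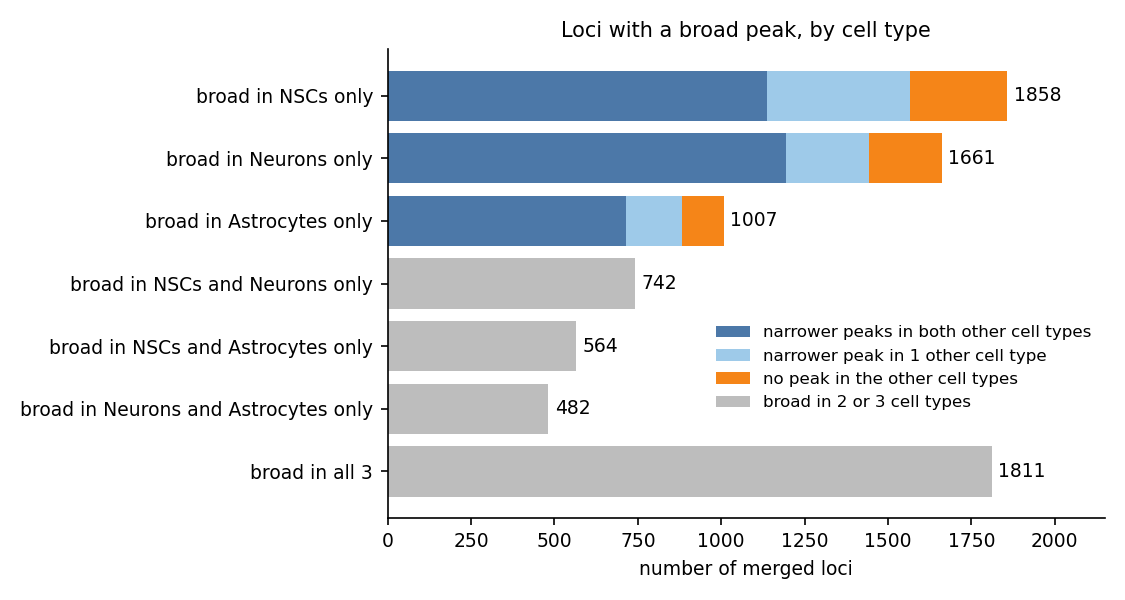
Number of merged loci by the cell types in which the peak reached 1 kb. Colours split the loci broad in 1 cell type by what the other lists hold there; in each of these 3 bars the largest section is narrower peaks in both other cell types, 1137 of 1858 for NSCs.

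The 10 named-gene loci with the largest smallest width over the 3 cell types all lay in introns. Apba2, an adaptor that binds the amyloid precursor protein, came first, at 2940 bp for NSCs, 2991 bp for Neurons and 2952 bp for Astrocytes (chromosome 1, 125458306 to 125461348). Its fold was 5.15, 12.9 and 6.77 in that order. Zfp37, a zinc finger gene, held a peak of 3046, 3063 and 2909 bp with folds of 33.4, 41.9 and 29.9 (chromosome 5, 77935381 to 77938444). Apoo, of the mitochondrial contact site complex, had 4919 bp in NSCs and 4932 bp in Neurons. In Astrocytes the Apoo region was split into 2 peaks, the wider of 2719 bp. Pde8b, a cyclic AMP phosphodiesterase, measured 3332 bp in NSCs and in Neurons and 2647 bp in Astrocytes, with folds of 47.9, 66.1 and 83.5. Slc1a1, a glutamate transporter of neurons, measured 2343, 2327 and 2343 bp, with folds of 48.0, 109 and 104. The set thus held peaks of similar width and unlike strength. Nlrp9, Sergef and Timeless, with folds from 5.27 to 11.5, were of the weakly enriched kind, and Ufd1l and Snx10, with folds from 19.3 to 57.1, were of the strong kind.

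**Figure D3:**
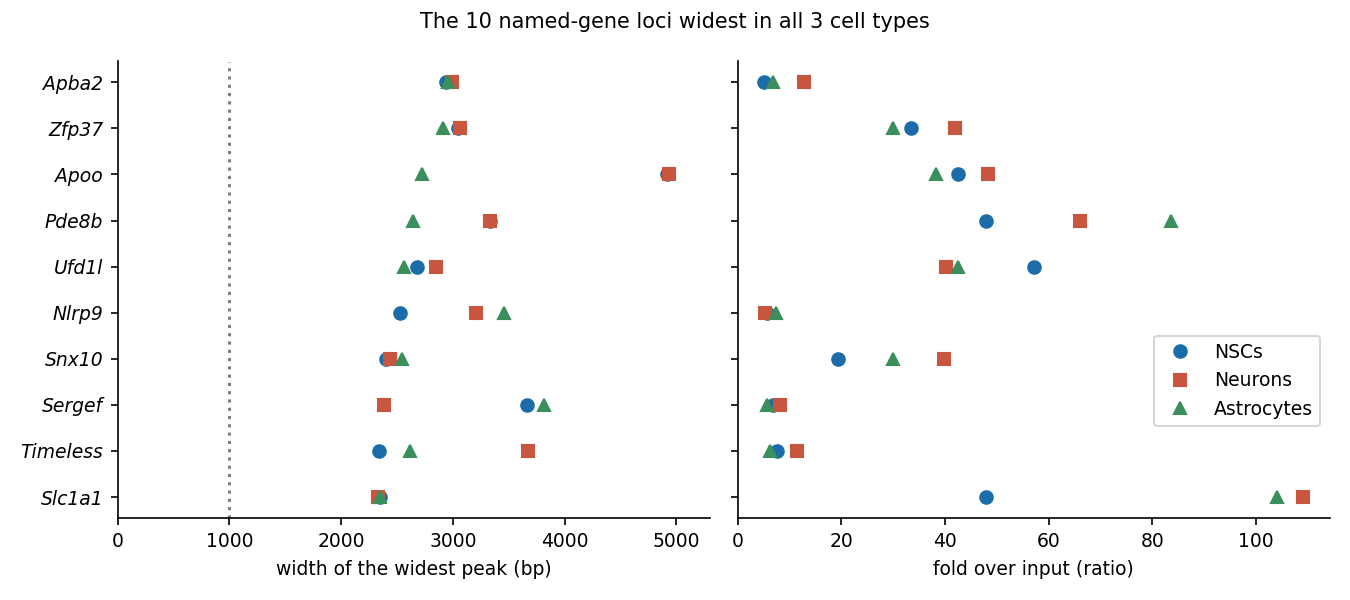
Width of the widest peak in bp (left) and its fold over input (right) at the 10 named-gene loci widest in all 3 cell types, with 1 symbol per library; the dotted line is 1 kb. Widths are all 2327 bp or more, while the folds run from 5.15 at Apba2 in NSCs to 109 at Slc1a1 in Neurons.

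The widest region of the series lay in 1 gene and in 1 cell type. Glra3, a subunit of the glycine receptor, a chloride channel, held an NSC peak of 18016 bp in an intron (chromosome 16, 37765629 to 37783645) with fold 16.6. A second NSC peak of 8930 bp with fold 17.3 ended just before it, and another, of 1193 bp with fold 21.1, came before that. None of the Neuron and Astrocyte peaks overlapped the 18016 or 8930 bp peak. Astrocytes had a separate pair in Glra3, of 3835 bp with fold 8.44 and of 1156 bp with fold 15.7, and neither was met by a peak of NSCs or Neurons. At another place in the gene all 3 lists held a peak, of 869 bp for NSCs, 649 bp for Neurons and 1090 bp for Astrocytes, with folds of 23.8, 36.2 and 25.4. Neurons had 0 broad peaks in Glra3. With 1 library per cell type, a property of the cells and of the DNA preparation cannot be told apart here.

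**Figure D4:**
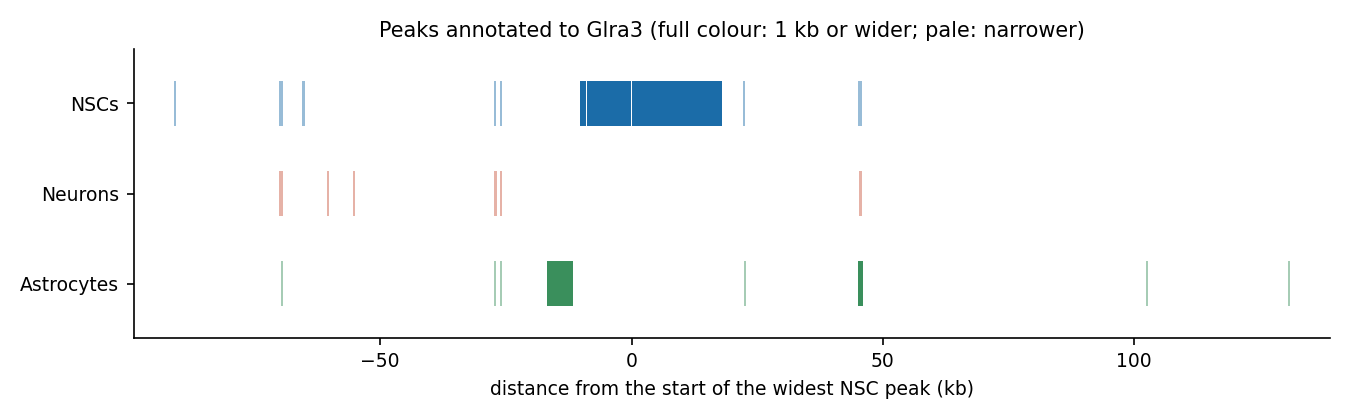
Peaks annotated to Glra3 in each cell type, by distance in kb from the start of the widest NSC peak; full colour marks peaks of 1 kb or wider. The NSC run of broad peaks and the Astrocyte pair to its left have no counterpart in the other rows, while the peak near 45 kb is in all 3.

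Wide peaks other than those of Glra3 also had folds of 10 or more. Those of Apoo had 42.6 in NSCs (4919 bp) and 48.3 in Neurons (4932 bp). Pde8b, at 3332 bp, had 47.9 in NSCs and 66.1 in Neurons, and Csrnp3 had 10.3 in Neurons at 4190 bp. The wide peaks described next had folds under 10. Those without a named gene were looked up after their values were seen. A region on chromosome 16 at 22045041 to 22053720 measured 8679 bp in NSCs with fold 4.43. Its Neuron counterpart measured 8974 bp with fold 3.31, and no Astrocyte peak overlapped it. The widest Astrocyte peak, of 7340 bp with fold 6.04, lay on chromosome 20 at 40869035 to 40876375 outside every annotated class and had no partner. An Astrocyte peak of 7174 bp with fold 6.19 reached a CpG island on chromosome 4 at 77400827 to 77408001, also without a partner. Close by, at 77448962 to 77453371, a peak over a CpG island was found in all 3 lists, at 4409 bp for NSCs, 4404 bp for Neurons and 4274 bp for Astrocytes. Its folds were 9.06, 9.48 and 8.95. Widest among the named peaks without a partner were, in Neurons, those in Csmd2 (3032 bp, fold 5.55), in Rn18s of the ribosomal RNA repeat (2759 bp, fold 4.49) and in Tcp11x2 (2351 bp, fold 3.24). In NSCs, after Glra3, this was Ighg, an immunoglobulin heavy chain locus, at 4079 bp with fold 3.88. In Astrocytes, after Glra3, they were Ighg at 1960 bp with fold 3.42 and Hpse2, a heparanase relative, at 1908 bp with fold 4.51.

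The named broad peaks with the highest scores were mostly shared and only somewhat over 1 kb. Scores of 3100 or more were held by 105 NSC, 203 Neuron and 178 Astrocyte broad peaks. Several stood at exactly 3100, such as those in Akap7 and Enpp1 in NSCs. Which peak came first by score is therefore not a ranking by strength. In NSCs the first was in an intron of Nrep, a gene of neuronal regeneration, at 2032 bp with fold 57.7, and it measured 1909 bp in Neurons and 1972 bp in Astrocytes. In Neurons the first was in Rnf150, at 1543 bp with fold 56.2, beside 1459 bp in NSCs and 1518 bp in Astrocytes. The Neuron set also held Syn3, a synapsin of synaptic vesicles, at 1276 bp with fold 63.5, beside 1329 and 1213 bp. In Astrocytes the first was in Capn15, a calpain, at 1741 bp with fold 45.1, beside 1651 bp in NSCs and 1699 bp in Neurons. The Neuron peaks in C7, a complement gene, and Col14a1, a collagen gene, were 1038 and 1050 bp wide. Their partners lay between 807 and 980 bp, so these loci were broad in 1 cell type by a small margin.

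Broad peaks lay in gene bodies about as often as peaks just under 1 kb did. Gene bodies held 35.9% of NSC broad peaks (34.6 to 37.3), 37.5% of Neuron ones (36.1 to 38.9) and 36.8% of Astrocyte ones (35.3 to 38.3). Over peaks of any width the shares were 34.2%, 34.7% and 35.0%, and at 800 to 999 bp they were 36.3%, 37.1% and 37.9%. No annotated class held 60.1%, 58.4% and 58.6% of broad peaks, beside 62.0%, 61.2% and 61.0% of narrower ones. Promoters held 3.52% (3.03 to 4.07), 3.87% (3.34 to 4.46) and 3.97% (3.38 to 4.63) of broad peaks, beside 2.97%, 3.20% and 3.02% over peaks of any width. Exons were touched by 4.06%, 5.13% and 4.22% of broad and by 2.73%, 2.98% and 2.84% of narrower peaks. At 800 to 999 bp the promoter shares were 3.03%, 3.25% and 3.19%, and the exon shares 3.75%, 4.13% and 4.03%. A wide region meets a small class more easily. Per Mb of peak, promoters were met by 26.7, 30.3 and 30.9 broad peaks, beside 60.1, 66.2 and 63.1 narrower ones. For exons in NSCs these were 30.8 and 55.8, and for gene bodies 272 and 697, with broad peaks lower in every list. A peak counts once however wide, so counts per Mb are lowered by width itself. The part of width in these shares was not tested. CpG islands were reached by 13, 14 and 10 broad peaks, or 0.259% (0.138 to 0.442), 0.296% (0.162 to 0.496) and 0.256% (0.123 to 0.470). The shares of narrower peaks, 0.145%, 0.207% and 0.160%, lay inside these intervals. At 1000 to 1249 bp the shares were 0.159%, 0.221% and 0.153%, and at 2000 bp or more 1.80%, 2.39% and 1.60%. Among the broad peaks, annotation differed between fold classes. Gene bodies held 26.4% of NSC broad peaks with a fold under 5 (20.7 to 32.7) and 42.2% of those with a fold from 20 to 40 (39.7 to 44.7), with 25.2% and 42.2% in Neurons and 27.2% and 41.5% in Astrocytes. At a fold of 40 or more the shares were lower than in that class, at 38.5%, 38.6% and 39.7%.

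Broad promoter peaks numbered 177 in NSCs, 183 in Neurons and 155 in Astrocytes, those of genes with placeholder names included. Named genes with such a peak numbered 65, 80 and 59. The peak of Slc39a8, whose sequence is given above, measured 2134 bp for NSCs, 1855 bp for Neurons and 2117 bp for Astrocytes, with folds of 33.1, 45.3 and 39.8. It lay on chromosome 2 at 241026447 to 241028581 in the files' coordinates and also reached a CpG island shore. The Utrn promoter held peaks of 1216, 1265 and 1205 bp, with folds of 45.3, 74.8 and 49.9. Ppp1r1c, whose window held 0 pentamers, had folds of 48.9, 51.9 and 53.4, and Ttll2, with 5, had 41.5, 49.0 and 67.8. Bbc3, a promoter of apoptosis in the p53 response, had the largest fold of this set in Neurons and in Astrocytes, with 59.4, 103 and 81.4. In NSCs that place was held by Hsd17b13, of lipid droplets, with 62.7, 29.3 and 50.9. Tecta, a protein of the inner ear's tectorial membrane, had 43.0, 98.4 and 79.8. Msi1, an RNA-binding protein that marks neural stem cells, had a promoter peak of 1329 bp for NSCs, 1094 bp for Neurons and 1183 bp for Astrocytes. Its folds were 21.8, 35.2 and 28.4, so the peak was present in all 3 cell types. Ascl2, a transcription factor, and Hspa1a, a heat shock protein, were also among the 29. Emilin1, a glycoprotein of elastic fibres, measured 2180 bp in Neurons and 2239 bp in Astrocytes, while in NSCs the region held 2 peaks, the wider of 1456 bp. In NSCs, the promoter peaks of Nt5c3a (1953 bp, fold 7.07) and Itga2, an integrin (1656 bp, fold 5.89), were among the widest. Their widest partners in the other lists were 680 and 819 bp for Nt5c3a, and 736 bp in Neurons for Itga2 with none in Astrocytes.

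Genes with a broad peak were long. Named genes with at least 1 broad peak numbered 1178 in NSCs, 1197 in Neurons and 978 in Astrocytes. Among 1725 such genes, 606 had a broad peak in all 3 cell types, though not always at the same place. Their median length on the GRCr8 annotation was 107 kb in NSCs, 96.6 kb in Neurons and 97.9 kb in Astrocytes. Named genes with only narrower peaks had medians of 38.6, 36.3 and 39.1 kb, and all protein-coding genes 15.5 kb. A broad peak lay in or beside 4.92%, 5.00% and 4.10% of 23148 protein-coding genes. In the longest 10% of coding genes the shares were 24.2%, 23.3% and 19.1%, and in the shortest 0.0432%, 0.0432% and 0.130%. A gene with more peaks has more chances to hold a broad one. The number of peaks per gene was not taken into account, and its part in these lengths was not tested.

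The most broad peaks in a named gene were in Sorcs3, a sorting receptor expressed in brain, with 8 in NSCs, 9 in Neurons and 6 in Astrocytes among 48, 42 and 41 peaks. Over all peaks the broad share was 4.12%, 3.44% and 3.37%. The broad peaks of Sorcs3 joined strong and weak ones: in NSCs the folds ran from 4.42 to 51.9. St6galnac3, a sialyltransferase, had 6, 8 and 6 among 44, 47 and 40 peaks. Ighg had 3, 5 and 6 among 17, 24 and 18, so these 2 genes equalled Sorcs3 in Astrocytes. Rbms3, an RNA-binding protein, had 7, 3 and 5 among 68, 81 and 91 peaks. Sdk1, a cell adhesion protein of synaptic layers, had 6, 6 and 3 among 79, 96 and 80. For Rbms3 in Neurons and Sdk1 in Astrocytes this was near the share over all peaks. Sorcs3, St6galnac3, Rbms3 and Sdk1 are 515 to 986 kb long. Myo18b, a myosin of 193 kb, had 4, 6 and 3 among 21, 22 and 19 peaks. Pgm5, a phosphoglucomutase relative of 188 kb, had 5, 4 and 5 among 17, 19 and 17. In Hpse2, a Neuron and an Astrocyte peak of 1038 bp had the same fold of 202. At another place in the gene broad peaks had folds of 58.0 in Neurons and 62.0 in Astrocytes. Its other broad peaks had folds under 10. Schip1 held the 4044 bp NSC peak with fold 7.83, and all 11 of its broad peaks had folds from 4.06 to 8.43.

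Gene lists were counted for broad peaks beside the share over all coding genes given above. Voltage-gated channels held a broad peak in 10 of 20 genes in the NSC list and in 7 in each of the others. Axon guidance genes did so in 6, 7 and 5 of 24, synaptic adhesion genes in 6, 6 and 2 of 20, and ionotropic glutamate receptors in 5, 5 and 4 of 18. Median gene lengths in these 4 lists were 416, 365, 1122 and 293 kb, far above the 15.5 kb of all coding genes. Ribosomal protein genes, with a median length of 3.42 kb, held 0 of 20 in each cell type, as did redox enzymes with 12.3 kb. Peaks of any width lay in only 1, 1 and 2 of these ribosomal protein genes and in 9, 12 and 10 of the redox enzymes. For voltage-gated channels this was 19 in each list. Scn8a, a sodium channel, had peaks of 1559, 1081 and 1036 bp with folds of 28.7, 26.4 and 48.1. Kcnh7, a potassium channel, had 2 broad peaks in NSCs, of 1817 and 1066 bp, and none in the other lists. Gria4, of the glutamate receptor list, had 1 of 1442 bp in Neurons with fold 5.66. Grik4, a kainate receptor subunit, shared a place where the peak measured 1388, 1264 and 1219 bp. Nlgn1, a neuroligin, led the adhesion list at 1933 bp in NSCs with fold 7.62. Ntng1 led axon guidance at 1530 bp in NSCs, and Ephb1, an ephrin receptor, had 3, 2 and 2 broad peaks.

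Marker lists of the cell types are short, and 1 gene more or less moves their shares widely beside the 4.10% to 5.00% of all coding genes. Of 12 stem cell markers, 1 had one in NSCs, 3 in Neurons and 1 in Astrocytes. Msi1 was the one in all 3, and Lpar1, a lysophosphatidic acid receptor, at 1052 bp, and Notch1, at 1030 bp, joined it in Neurons. Of 12 neuron markers 1 did, Prox1, a transcription factor of the dentate gyrus, with 1337 bp for NSCs, 1320 bp for Neurons and 1218 bp for Astrocytes at one place. Of 12 astrocyte markers 0 did in any list, though 6, 7 and 6 held a narrower peak. Of 7 oligodendrocyte markers 2 did in each list, Mbp, a myelin protein, and Pdgfra, a growth factor receptor. The microglia list had 0 of 6. Of the cell cycle list, Cdk6 had a broad peak of 1041 bp in NSCs and 1090 bp in Astrocytes. Of 12 adenine methylation enzymes 0 had one. Txnrd3 held 2 peaks in NSCs, 5 in Neurons and 3 in Astrocytes, none wider than 709 bp, and N6amt1 held none. Of peaks in or beside olfactory receptor genes, 0 of 199, 0 of 231 and 0 of 180 were broad, which allows shares of up to 1.84%, 1.58% and 2.03% beside 4.12%, 3.44% and 3.37% over all peaks. Of peaks at vomeronasal receptor genes 4 of 114, 4 of 126 and 3 of 107 were broad, of those at Zfp zinc finger genes 5.03%, 5.16% and 4.32%, and of those at solute carrier genes 3.75%, 3.75% and 3.41%. The families were looked up by symbol after the lists were seen.

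Chromosome 12 had the largest share of broad peaks in every list. It held 9.40% of its NSC peaks as broad (8.39 to 10.5), 8.55% of its Neuron peaks and 7.91% of its Astrocyte peaks, beside a median autosome of 3.53%, 2.99% and 2.79%. Per Mb this was 5.39, 5.86 and 4.52 broad peaks, beside medians of 1.66, 1.53 and 1.22. On the X chromosome the shares were 2.34%, 1.55% and 1.48%. Broad peaks of chromosome 12 had median folds of 23.9, 25.8 and 26.9, beside 17.8, 25.9 and 25.4 over all broad peaks, and partners in both other lists for 95.1%, 90.9% and 93.7%. Chromosome 10 had higher medians, 27.3, 33.9 and 34.5, with partners in both for 92.2%, 94.8% and 95.4%. Chromosome 1 held the most, 793, 731 and 594, with median folds of 8.58, 12.3 and 7.74 and partners in both for 72.9%, 80.6% and 80.8%. The lowest 3 medians in each list were those of chromosomes 1, 2 and X. Windows of 1 Mb with many broad peaks also differed in fold and sharing. In the window from 48 Mb of chromosome 12, 17 of 69 NSC peaks were broad with a median fold of 27.6, and all 17 had partners in both other lists. In the window from 99 Mb of chromosome 15, 25 of 75 NSC peaks were broad with a median fold of 8.69, and 15 of the 25 had such partners. Another peak lay within 1 kb of 25.5% of NSC, 20.4% of Neuron and 20.7% of Astrocyte broad peaks, beside 14.1%, 13.9% and 12.4% of narrower ones.

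**Figure D5:**
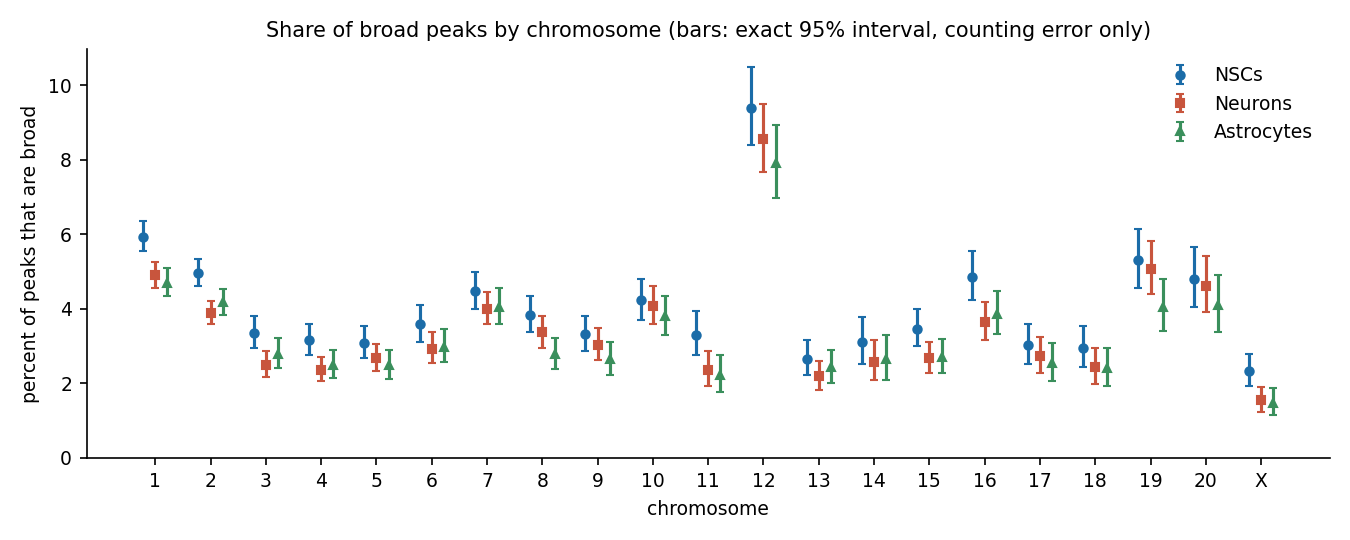
Percent of each chromosome's peaks that were 1 kb or wider, for the 3 cell types (Y left out); points are shares and bars exact 95% intervals for counting error. Chromosome 12 lies highest in all 3, at 9.40%, 8.55% and 7.91%, and X lowest.

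The authors' deposited tables also compare the immunoprecipitated libraries with each other, in 6 lists. These comparisons share libraries with one another and with the peak lists that fixed the width, so the counts are a description. Of NSC broad peaks, 12.4% overlapped a region listed as higher in NSCs than in Neurons, beside 16.9% of NSC peaks of any width, and 13.2% one higher than in Astrocytes, beside 20.2%. Of Neuron broad peaks, 13.3% overlapped a region higher than in NSCs, beside 19.7%, and 12.1% one higher than in Astrocytes, beside 22.1%. Of Astrocyte broad peaks, 8.65% and 5.04% overlapped a region higher than in NSCs and in Neurons, beside 15.0% and 11.2%. In the opposite direction, 6.93% of NSC broad peaks overlapped a region higher in Neurons, beside 4.32% of peaks of any width, and 4.92% one higher in Astrocytes, beside 2.42%. Of Neuron broad peaks 3.57% overlapped a region higher in NSCs, beside 1.71%, and 1.27% one higher in Astrocytes, beside 0.792%. Of Astrocyte broad peaks 4.89% overlapped a region higher in NSCs, beside 2.83%, and 4.89% one higher in Neurons, beside 3.89%. Peaks of 800 to 999 bp had shares on either side of these. For regions higher in the peak's own cell type they were 11.2% and 14.5%, 19.7% and 16.0%, and 12.5% and 6.17%. In the opposite direction they were 8.83% and 5.64%, 3.16% and 1.12%, and 4.62% and 6.49%, in the same order. In the authors' deposited table of regions higher in NSCs than in Neurons, the widest was the 8679 bp region of chromosome 16 described above, with a fold of 3.42 between the libraries. The Apoo region of 4919 bp was the widest of those higher in NSCs than in Astrocytes, with a fold of 2.58. Both are narrower than the 18016 and 8930 bp NSC peaks of Glra3, so neither Glra3 peak was listed at its full width as higher in NSCs. Narrower regions inside those peaks are not reported here.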

How the data were processed

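The authors sonicated rat genomic DNA, enriched it with an anti-6mA antibody and sequenced 5 libraries, per the labels' protocols. Reads were aligned with BWA, per the submitters' processing notes, and neither its version nor the genome build, annotation and peak caller version was stated. Read counts per library and mapped shares in percent are as the authors deposited them: 15760246 to 16095308 reads in the immunoprecipitated libraries, of which 86.55% to 87.94% mapped uniquely. Per the file headers, the deposited score is 10 times −log10 of the peak p-value (lowest 50, a p of 1e-05) and the fold is a ratio over input or, in the comparison tables, over another library. Folds set side by side belong to separate lists, and no test compared them.

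Peaks were read as deposited, skipping 6 blank lines, with Python 3.11.15, pandas 2.3.3 and scipy 1.17.1. Overlap and interval code was tested on simulated data. Coordinates are those of the files. Gene lengths and promoter sequences came from RefSeq on GRCr8, matched by symbol. Members and the 14 gene lists (203 genes) were chosen with earlier results of these data known. Named genes were the widest, highest-scoring and most often hit per cell type, the 10 loci widest in all 3, the widest in promoters, CpG islands and lists or without partners, both title genes, and peaks at the threshold. Some genes that this rule names are not reported here. Alternatives were a score of at least 100, a width of 1500 bp, 50% coverage, the peak centre, and placed chromosomes only.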

Additional observations from a re-analysis of the deposited data

How the results depend on the processing

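With only peaks of score 100 or more, the broad share was 8.84%, 7.20% and 7.08% in NSCs, Neurons and Astrocytes, and the share of broad peaks with a partner in both other lists was 72.5%, 82.9% and 84.7%. With a width of 1500 bp or more, the broad share was 0.717%, 0.515% and 0.480%, and the share with both partners 78.1%, 84.2% and 84.0%. At that width gene bodies held 33.8% of NSC broad peaks, and promoters 5.22% in Neurons and 4.85% in Astrocytes. Requiring 50% of the broad peak to be covered gave 70.0%, 79.1% and 81.1% with both partners, and its centre 71.4%, 79.7% and 81.4%. The other shares in gene bodies and promoters moved by less than their intervals, and restricting to placed chromosomes left out no peak. The cause of these shifts was not tested. No paired analysis was possible because each cell type had 1 library. Depth limits every list, since weak regions fall below the score minimum, and no replicate shows how far a width varies between preparations.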
